A study of Mus musculus with 12 samples.

Results

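The Iroquois genes Irx1 to Irx6 were followed through the chambers of the embryonic mouse heart and the corresponding parts of heart organoids (HOs). The members were the rows of the expression table named Irx1, Irx2, Irx3, Irx4, Irx5 or Irx6, and they numbered 6 of 26190 genes. All 6 had fragments in both embryonic chambers and in both HO parts. The data were 12 RNA-seq libraries in 4 groups of 3 biological replicates. Atria and ventricles were dissected from hearts of C57BL/6 embryos at E11.5 (E11.5H), and whether a library pools several hearts is not given in the sources used here. The HOs were cut into an atrium-like and a ventricle-like part after 13 days of culture. They were grown from embryoid bodies of mouse embryonic stem cells on a laminin-entactin gel with FGF4 throughout and with BMP4, the GSK3 inhibitor BIO and LIF from day 9. The labels give C57BL/6 for these cells, whereas the study as a whole also used lines of F1 hybrids with JF1, so the line behind each HO library is not known here. No group carried a genetic change. The comparison asks whether a chamber pattern of the embryo is present in the HO parts named for them.

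Iroquois proteins are transcription factors of the TALE class of homeodomain proteins, which bind DNA through an atypical homeodomain and carry a further conserved stretch, the Iro box. In the mouse they lie in a pair of clusters. Irx1, Irx2 and Irx4 form the IrxA cluster, and Irx3, Irx5 and Irx6 form the IrxB cluster. In the heart Irx4 is known for its restriction to ventricular myocardium, where it helps to maintain the ventricular program. Irx3 is known from the trabeculated ventricular myocardium and the ventricular conduction system, and Irx5 from the endocardium of the early heart and from the gradient of repolarization across the adult ventricular wall. Irx1 and Irx2 have been described in the ventricular septum, while less is known of Irx6 in the heart.

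The clusters were placed on the genome build GRCm38. On chromosome 13 Irx1 spans bases 71958232 to 71963723 on the minus strand, Irx2 spans 72628820 to 72634196 on the plus strand, and Irx4 spans 73260497 to 73269620 on the plus strand. On chromosome 8 Irx3 spans bases 91798511 to 91801654 on the minus strand, Irx5 spans 92357796 to 92361456 on the plus strand, and Irx6 spans 92674289 to 92680956 on the plus strand. All 6 are protein-coding genes.

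The members resemble each other in the coding sequence of the homeodomain, which matters for telling their fragments apart. The stretch below, 45 bases long, encodes the recognition helix of the homeodomain, the part that contacts DNA, and was taken from GENCODE M21 transcripts. Capitals mark the 8 positions that vary among the members, all of them at the last base of a codon, so that the 6 stretches encode 1 and the same run of 15 amino acids.
Irx1: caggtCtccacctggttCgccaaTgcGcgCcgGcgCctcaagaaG
Irx2: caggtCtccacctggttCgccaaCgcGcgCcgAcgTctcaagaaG
Irx4: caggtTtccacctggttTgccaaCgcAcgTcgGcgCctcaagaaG
Irx3: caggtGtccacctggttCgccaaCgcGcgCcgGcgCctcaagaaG
Irx5: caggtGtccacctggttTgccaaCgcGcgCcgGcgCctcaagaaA
Irx6: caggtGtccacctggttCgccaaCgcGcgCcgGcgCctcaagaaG
Irx3 and Irx6 were identical over all 45 bases, and the longest run of bases shared by their transcripts was 88. The next longest shared runs were 65 bases between Irx2 and Irx5 and 50 bases between Irx3 and Irx5, and the other pairs shared runs of 23 to 41 bases. How fragments that match several genes were divided is not given in the sources used here. Of the 72 fragment numbers of the members, 7 were not whole. A noncoding gene, Irx3os, is annotated by GENCODE over Irx3 on the opposite strand and has no row in the table, and the use of strand in counting is not given in the sources used here, so antisense fragments cannot be told apart from those of Irx3.

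Promoter sequence of the reference (RefSeq, GRCm38.p6) was at hand for 3 members that differed together between the embryonic chambers, namely Irx2, Irx3 and Irx4. Each run below holds the 250 bases before the start of the gene, written 5′ to 3′ on the strand of the gene, and capitals mark a match to 1 of 4 motifs searched on both strands. These were the E box CANNTG, bound by basic helix-loop-helix factors such as Hand proteins, the NK2 element TNAAGTG, the GATA site AGATAA and the T-box core AGGTGT, which can share letters with an E box.
Irx2, chr13:72628570-72628819, plus strand: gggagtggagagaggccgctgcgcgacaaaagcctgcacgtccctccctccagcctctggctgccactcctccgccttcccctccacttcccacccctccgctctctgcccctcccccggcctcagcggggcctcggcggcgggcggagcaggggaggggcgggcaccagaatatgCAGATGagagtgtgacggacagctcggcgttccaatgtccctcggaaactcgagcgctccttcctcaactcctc
Irx4, chr13:73260247-73260496, plus strand: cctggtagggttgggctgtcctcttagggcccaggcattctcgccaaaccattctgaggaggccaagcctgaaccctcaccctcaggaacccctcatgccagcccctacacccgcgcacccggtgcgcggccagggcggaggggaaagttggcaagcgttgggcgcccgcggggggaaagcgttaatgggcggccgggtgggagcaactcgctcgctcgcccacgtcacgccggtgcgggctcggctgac
Irx3, chr8:91801655-91801904, minus strand: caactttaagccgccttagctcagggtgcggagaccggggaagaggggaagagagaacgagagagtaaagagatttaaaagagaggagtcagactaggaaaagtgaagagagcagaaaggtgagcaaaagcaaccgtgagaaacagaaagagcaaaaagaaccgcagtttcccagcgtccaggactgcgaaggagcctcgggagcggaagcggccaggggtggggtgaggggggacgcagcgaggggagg
The only match was an E box in the Irx2 promoter, whose first base lies at -74 from the start of the gene. Of 32851 reference promoters of the same length, 66.2% held an E box, 10.1% the NK2 element, 9.99% the GATA site and 11.8% the T-box core. The promoters of Irx2 and Irx4 had GC contents of 68.4% and 68.8%, and that of Irx3 56.0%, against a median of 52.4% over all promoters. The 250 bases before Irx2 fill nearly the whole gap of 255 bases to the noncoding gene Gm20554, which is transcribed away from Irx2 on the other strand.

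The libraries held 23971258 to 30540993 fragments assigned to genes. Where a library had 0 fragments of a gene, a level of up to 3 fragments, or 0.0982 to 0.125 counts per 1000000 (CPM), was still allowed by counting error. Of 8 ventricular marker genes all 8 were called lower in atria than in ventricles of E11.5H, and of 8 atrial marker genes 6 were called higher. Over all 14536 genes tested 1.97% were called lower and 2.92% higher. The lists were chosen with earlier results of these data known, so these counts are no independent check of the dissection. Between the HO parts 0 of either list passed the threshold, as did 0 of all 15703 genes tested. Of the atrial markers 7 had a lower estimate in atrium-like than in ventricle-like parts, 4 without overlap, with a median log2 fold change of -1.28. Of the ventricular markers 5 had a lower and 3 a higher estimate there, with a median of -0.44. Cardiomyocyte markers, 12 genes of the contractile apparatus and calcium handling, had a mean log2 CPM of 9.63 to 10.03 in E11.5H, of 5.10 to 6.81 in atrium-like parts and of 6.96 to 8.48 in ventricle-like parts, and 0 of the 12 were at 0 in any library. Hepatocyte and visceral endoderm markers stood at a mean log2 CPM of 5.50 to 9.84 in atrium-like and of 1.05 to 8.63 in ventricle-like parts, against -0.71 to 0.38 in E11.5H.

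In E11.5H 4 of the 6 Iroquois genes, Irx4, Irx3, Irx2 and Irx1, were much lower in atria than in ventricles. Irx5 was lower in atria by less than the fold limit, and Irx6 did not pass the test. Levels between genes are compared in FPKM, the fragments per kilobase of transcript and 1000000 fragments deposited by the authors. Differences are log2 fold changes with SE from edgeR's quasi-likelihood test, with p adjusted by the Benjamini-Hochberg method over all genes tested, and a call needed an adjusted p under 0.05 together with a log2 fold change beyond 1 in either direction. In this bulk RNA, fewer cells of a type and less RNA per cell cannot be told apart.

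Irx4 had 1.89, 0.297 and 0.213 FPKM in the 3 atrial libraries and 32.4, 41.1 and 36.6 FPKM in the 3 ventricular libraries. The groups were far apart, with atrial library 1 the highest of its group. This library also had the highest mean log2 CPM of its group for ventricular markers (5.99, against 5.39 and 5.53) and cardiomyocyte markers (9.89, against 9.63 and 9.72). Hepatocyte and visceral endoderm markers (0.38) and epithelial markers (0.35) were highest there too. The part of any of these cells in its Irx4 value was not tested. The log2 fold change of Irx4 in atria against ventricles was -5.56 ± 0.56 (SE, n = 3 per group; edgeR adjusted p = 1.45e-04), and it was -7.24 without atrial library 1. Irx4 was the most abundant member in every ventricular library.

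Irx3 had 0.825, 1.32 and 1.34 FPKM in atria and 7.52, 7.54 and 7.59 FPKM in ventricles. Its 3 ventricular values were nearly equal, and the lowest of them lay well above the highest atrial value. Its log2 fold change was -2.77 ± 0.22 (edgeR adjusted p = 2.79e-05).

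Irx2, the neighbour of Irx4 in the IrxA cluster, had 0.140, 0.0566 and 0.493 FPKM in atria and 5.56, 5.16 and 6.72 FPKM in ventricles. Irx1, the remaining gene of this cluster, had 0, 0.130 and 0.179 FPKM in atria and 1.45, 1.77 and 2.71 FPKM in ventricles. Both were near the limit of detection in atria, where the 3 libraries together held 60 fragments of Irx2 and 21 of Irx1, against 1426 and 379 in ventricles. In atria against ventricles the log2 fold change reached -4.74 ± 0.55 for Irx2 (edgeR adjusted p = 3.51e-04) and -4.34 ± 0.83 for Irx1 (edgeR adjusted p = 0.00652), and without atrial library 3 it was -5.93 and -5.01.

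Irx5 and Irx6, both of the IrxB cluster, were detected in all libraries of both chambers. Irx5 had 9.17, 9.61 and 10.3 FPKM in atria and 16.5, 11.6 and 12.9 FPKM in ventricles. The groups did not overlap, but the log2 fold change, -0.56 ± 0.14, was under the fold limit (edgeR adjusted p = 0.0238). Irx6 had 1.59, 2.02 and 2.999 FPKM in atria and 3.42, 5.01 and 2.89 FPKM in ventricles, with the highest atrial library above the lowest ventricular one. Its log2 fold change was -0.84 ± 0.27 (edgeR adjusted p = 0.0717). Atrial library 3 was the highest of its group for Irx6 and for all other members except Irx4. It also had the highest mean log2 CPM of 8 skeletal muscle markers in its group, 1.14 against -1.87 and -1.11, with 0 of the 8 at 0, and of 10 neural markers, 0.69 against -0.33 and 0.09, with 1 of the 10 at 0. The part of these cells in the result was not tested. Without atrial library 3, Irx6 passed the threshold (log2 fold change -1.14, edgeR adjusted p = 0.0341).

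In all, 4 of the 6 members were called lower in atria, where 1.97% of all 14536 genes tested were called lower and 2.92% higher. The groups did not overlap, with atria lower, for 5 members, against 11.8% of all genes. The median log2 fold change of the members was -3.56, against 0.01 over all genes. The call for these 4 members held in each fit that left out 1 library, but in a fit of all 12 libraries, which shares 1 estimate of spread with the HO libraries, 0 of the 6 members were called.

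**Figure D1:**
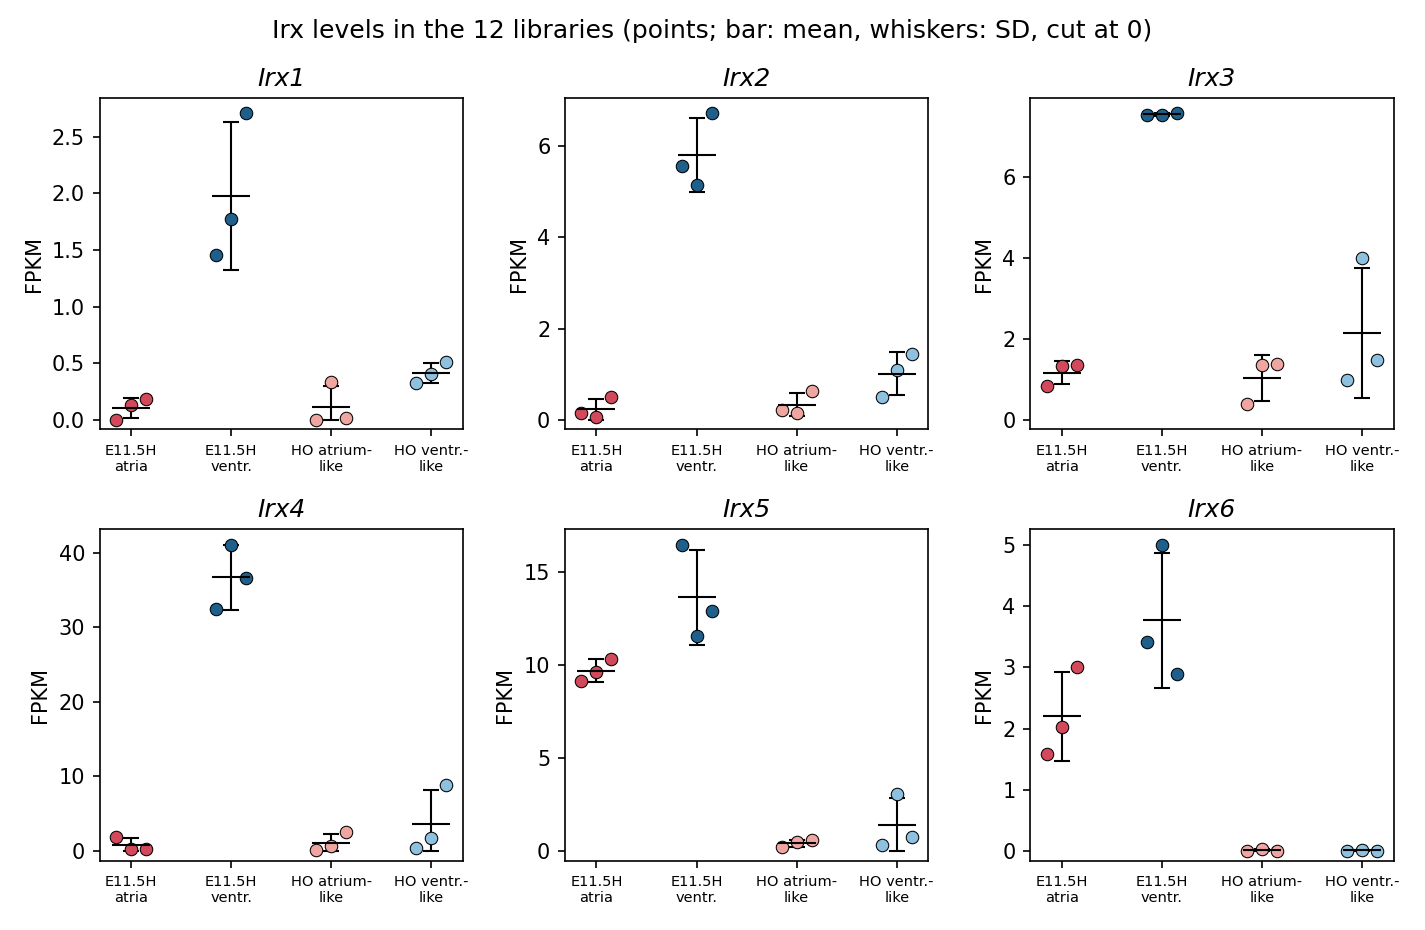
FPKM (linear axis, own scale per panel) of each Irx gene in the 12 libraries, with points for libraries, a bar for the mean and whiskers for the SD over 3 libraries, cut at 0. Irx1 to Irx4 stand out in ventricles of E11.5H, Irx5 and Irx6 are present in both embryonic chambers, and Irx6 is near 0 in HOs.

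The composition of the Iroquois transcripts also differed between the embryonic chambers. Summed over the 6 members, the level was 14.2 ± 1.19 FPKM (SD, n = 3) in atria and 69.5 ± 2.65 FPKM in ventricles. In atria Irx5 made up 67.4%, 71.6% and 66.4% of this sum, and Irx4 13.9%, 2.21% and 1.37%. In ventricles Irx4 made up 48.5%, 57.0% and 52.8%, and Irx5 24.7%, 16.0% and 18.6%. The leading member was Irx5 in each atrial library and Irx4 in each ventricular library. A share within a library does not depend on the scaling of libraries. The mean share of Irx4 was 46.9 percentage points lower in atria (exact permutation test, two-sided, p = 0.1, which is the smallest p that 3 against 3 libraries allow, and 0.4 after Benjamini-Hochberg adjustment over 4 such tests).

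In HOs the Iroquois genes were low in both parts, and no member passed the test between atrium-like and ventricle-like parts. Every member tested had a lower estimate in atrium-like parts, as in the embryo, but the libraries of the 2 parts overlapped for all of them. When libraries were scaled to cardiomyocyte genes, the median of all genes moved up by 1.59 on the log2 scale and the estimates of Irx2 and Irx3 to 0.06 and 0.09, so that they stayed below the median gene. Between libraries of the same number the atrium-like part was lower in all 3 for each of the 5 members tested, and for 28.1% of all genes. The sources used here do not say that the same number stands for the same organoid. A fit with the number as a block called 0 members, with adjusted p of 0.541 to 0.665 (edgeR).

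Irx4 had 0.0940, 0.658 and 2.47 FPKM in atrium-like parts and 0.399, 1.67 and 8.83 FPKM in ventricle-like parts. The values spread widely within each part, and library 3 was the highest of both. Between the parts Irx4 had a log2 fold change of -1.61 with a 95% interval from -5.07 to 1.85, and it was 0.21 without ventricle-like library 3. Both libraries numbered 3 also had the highest mean log2 CPM of cardiomyocyte markers of their part, 6.81 in the atrium-like and 8.48 in the ventricle-like part. The 8 ventricular markers were highest of their part there too, at 5.46 and 5.85. The same libraries were also the highest of their part for 12 epithelial markers, at 7.91 and 7.54, and for 8 lung and foregut markers, at 1.16 and 2.11, and ventricle-like library 3 was the highest of its part for hepatocyte and visceral endoderm markers, at 8.63. The part of any of these cells in the Irx4 values was not tested.

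Irx3 had 0.384, 1.36 and 1.38 FPKM in atrium-like parts and 0.969, 3.99 and 1.47 FPKM in ventricle-like parts. Irx5 had 0.189, 0.454 and 0.563 FPKM in atrium-like parts and 0.330, 3.08 and 0.731 FPKM in ventricle-like parts. For both genes ventricle-like library 2 stood above the other HO libraries, and these overlapped. Fitted log2 fold changes were -0.91 for Irx3 (95% interval -2.72 to 0.91) and -1.62 for Irx5 (-3.98 to 0.74), and without ventricle-like library 2 they were -0.12 and -0.27. Ventricle-like library 2 had the highest neural marker level of all libraries, a mean log2 CPM of 4.78 over 10 genes with 1 of them at 0, against -1.82 to 2.72 in the other HO libraries. Its 8 skeletal muscle markers had a mean log2 CPM of 1.81, and those of atrium-like library 2 had 2.08, each with 1 marker at 0, against -2.71 to -2.32 in the other 4 HO libraries. Within its part, ventricle-like library 2 was also highest for endothelial and endocardial markers (mean log2 CPM 4.09, against 2.29 and 1.62). The same held for macrophage markers (5.15, against 4.87 and 2.48). Atrium-like library 2 was above it for both lists, at 4.58 and 5.44. The part of any of these cells in the Irx3 and Irx5 values was not tested. With both libraries numbered 2 left out, an alternative added after seeing the data, 0 members were called and the log2 fold changes of Irx3 and Irx5 were -0.30 and -0.32.

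Irx2 had 0.213, 0.146 and 0.621 FPKM in atrium-like parts and 0.501, 1.09 and 1.43 FPKM in ventricle-like parts. Irx1 had 0, 0.329 and 0.0149 FPKM in atrium-like parts and 0.326, 0.401 and 0.508 FPKM in ventricle-like parts. In each gene a single atrium-like library reached into the range of the ventricle-like ones, library 3 for Irx2 and library 2 for Irx1. The log2 fold change was -1.42 for Irx2 (95% interval -3.44 to 0.60) and -1.81 for Irx1 (-5.45 to 1.84). Leaving out atrium-like library 2 moved the estimate of Irx1 to -5.22 without a call.

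Irx6 was at or near 0 in the HOs. It had 4 fragments in atrium-like library 2, 2 in ventricle-like library 2 and 0 in the other 4 libraries, so it was too low to be tested between the parts.

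Over the 5 members tested between the HO parts, adjusted p ranged from 0.750 to 0.788 (edgeR), the median log2 fold change was -1.61 against -0.03 over all genes, and 0 members were called or free of overlap with atrium-like parts lower, where 9.25% of all genes were free of overlap in this direction. The background of calls was 0% of 15703 genes by edgeR, with 5.66% at an unadjusted p under 0.05, a level that 0 of the members reached. DESeq2 called 72 genes, and 0 of these were members. The HO intervals of Irx1 and Irx5 include their embryonic estimates of -4.34 and -0.56. Those of Irx2, Irx3 and Irx4 end at -3.44, -2.72 and -5.07, short of the embryonic estimates of -4.74, -2.77 and -5.56. These estimates have 95% intervals of their own, -5.96 to -3.52, -3.26 to -2.29 and -6.80 to -4.31. The intervals of E11.5H and HOs overlap for Irx3 and Irx4 but not for Irx2. The test of the difference itself, given below, called 0 members.

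**Figure D2:**
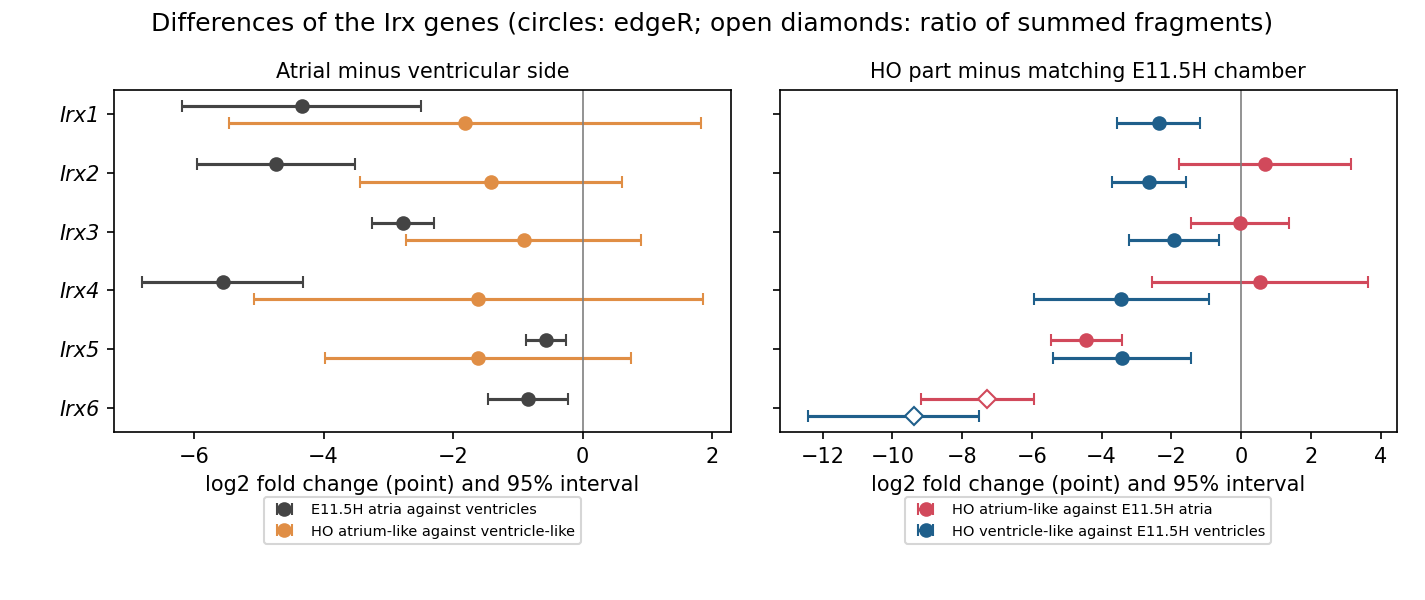
Log2 fold changes with 95% intervals of each Irx gene, on the left for the atrial against the ventricular side in E11.5H and HOs, on the right for each HO part against its embryonic chamber; open diamonds for Irx6 are ratios of summed fragments with counting intervals. The counting intervals leave out the spread between libraries, unlike the other intervals. The embryonic intervals of Irx1 to Irx4 lie far from 0, whereas all intervals between HO parts include 0.

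The difference between the chamber contrasts of HOs and E11.5H was fitted over all 12 libraries. The contrast in HOs minus that in E11.5H was 3.30 on the log2 scale for Irx2 (95% interval 0.83 to 5.77), 1.89 for Irx3 (0.21 to 3.58) and 3.94 for Irx4 (0.06 to 7.83), with unadjusted p of 0.0136, 0.0313 and 0.0469 in edgeR's quasi-likelihood test. Positive values stand for a weaker fall toward the atrial side in HOs. After adjustment over all genes the p values of these members were 0.317, 0.389 and 0.422, so 0 of 6 members were called, where 0.152% of 16494 genes were called and 11.7% had an unadjusted p under 0.05. The estimates were 2.56 for Irx1 (-1.76 to 6.88), -1.02 for Irx5 (-3.00 to 0.95) and 1.84 for Irx6 (-1.57 to 5.25), where Irx6 rests on 6 fragments in HOs.

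In HOs the leading member differed between libraries. Irx3 led in libraries 1 and 2 of both parts, with 43.7% and 45.6% of the summed FPKM in atrium-like and 38.4% and 38.9% in ventricle-like parts. Irx4 led in library 3 of both, with 48.9% and 68.0%. The libraries of the same number thus had the same leading member in both parts. The summed level was 0.881, 2.98 and 5.04 FPKM in atrium-like parts and 2.53, 10.2 and 12.98 FPKM in ventricle-like parts. The mean share of Irx4 was 6.16 percentage points lower in atrium-like than in ventricle-like parts (exact permutation test, two-sided, p = 0.8, adjusted 0.8).

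**Figure D3:**
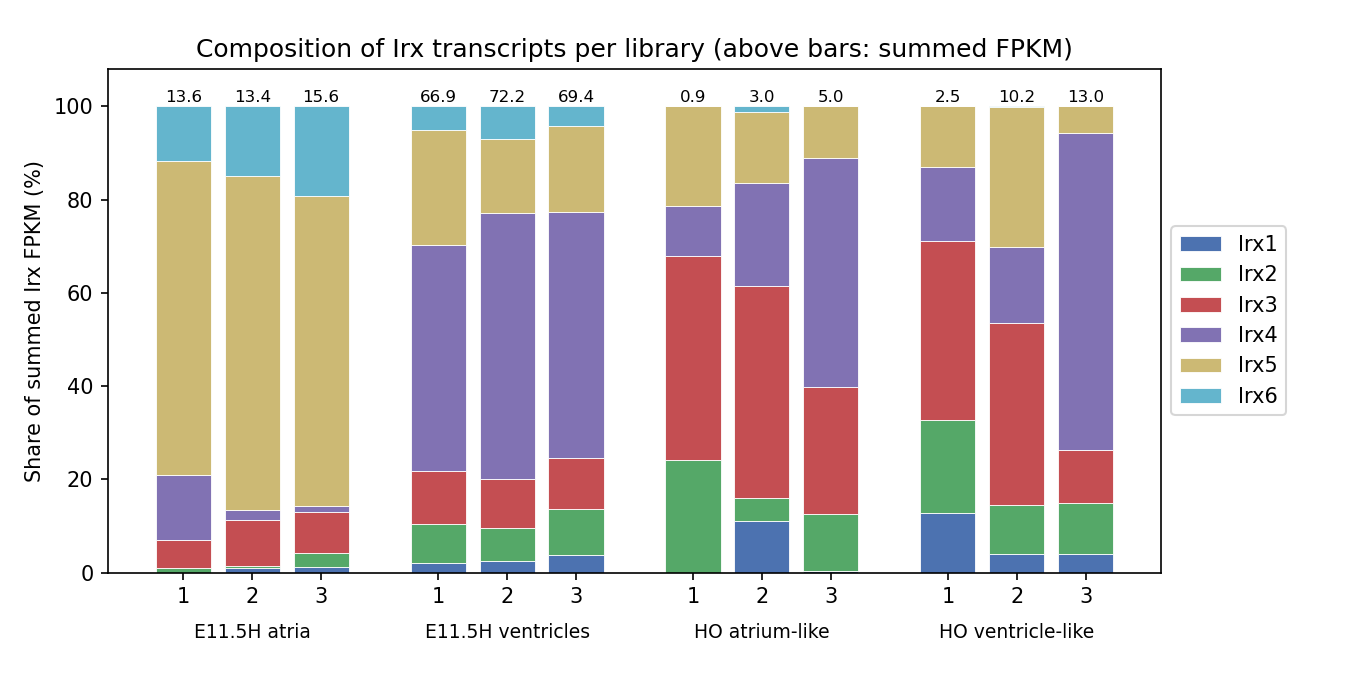
Stacked bars give the share (%) of each Irx gene in the summed FPKM of the 6 genes in each library, with replicate numbers under the bars and the summed FPKM above them. Irx5 leads in atria of E11.5H and Irx4 in ventricles, whereas in HOs Irx3 leads in libraries 1 and 2 and Irx4 in library 3 of both parts.

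Set against the embryonic chamber of the same name, ventricle-like parts were low in the whole family. All 6 members were lower in each ventricle-like library than in each ventricular library, where 21.1% of 15094 genes tested did not overlap in this direction. This comparison and those above share libraries, so their values are not independent. The call was made for 5 members, against 7.35% of all genes called lower and 11.6% called higher, and the median log2 fold change was -3.02 against 0.09 over all genes. Marker lists differed here as well. Ventricular markers had 7 of 8 called lower and 0 higher (median log2 fold change -4.41). Cardiomyocyte markers had 10 of 12 called lower and 0 higher (-2.52). All 12 epithelial markers were called higher. The part of these cells in the Irx values was not tested. The called log2 fold changes were -2.36 ± 0.49 for Irx1 (edgeR adjusted p = 0.0175), -2.63 ± 0.44 for Irx2 (0.00945), -1.92 ± 0.53 for Irx3 (0.0394) and -3.41 ± 0.81 for Irx5 (0.0260). Without ventricle-like library 2 those of Irx3 and Irx5 were -2.69 and -4.74. Irx4 had a log2 fold change of -3.43 ± 1.04 and narrowly missed the threshold (edgeR adjusted p = 0.0515), with ventricle-like library 3 at 8.83 FPKM far above the other 2. Without that library its log2 fold change was -5.30 (edgeR adjusted p = 0.00240). The number of calls fell to 2, 2 and 1 without ventricular library 1, 2 or 3, and to 3 without ventricle-like library 1. Each of these fits kept the lower direction of all 6 members. For Irx6 the fragments in ventricles were 663 times those in ventricle-like parts after TMM scaling of the library sizes (95% counting interval 183 to 5479), and it was called (edgeR adjusted p = 0.00273). A counting interval covers counting error of the summed fragments only and leaves out the spread between libraries. The edgeR 95% interval of Irx6 was -11.46 to -6.77 on the log2 scale.

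Atrium-like parts differed from atria in a narrower set. Irx5, the leading member of embryonic atria, had 0.402 ± 0.192 FPKM in atrium-like parts (SD, n = 3) against 9.71 ± 0.595 FPKM in atria, with a fitted difference of -4.44 ± 0.42 on the log2 scale (edgeR adjusted p = 0.00211). Irx6 was the other member called (edgeR adjusted p = 0.00783), with 157 times the fragments in atria after the same scaling (95% counting interval 61.2 to 579). These 2 of 5 members tested compare with 8.81% of 15418 genes called lower and 16% called higher, and they were also the 2 whose groups did not overlap, against 30.3% of all genes. Several marker lists also differed between atrium-like parts and atria. Of the cardiomyocyte markers 11 of 12 were called lower (median log2 fold change -3.60). Atrial markers had 6 of 8 called lower (-4.04) and erythroid markers 6 of 6 (-8.60). All 12 hepatocyte and visceral endoderm markers and all 12 epithelial markers were called higher. Endothelial and endocardial markers were lower too. Their mean log2 CPM over 12 genes lay between 5.74 and 5.92 in the embryonic libraries, between 1.55 and 4.58 in libraries of atrium-like parts and between 1.62 and 4.09 in those of ventricle-like parts. In each HO part 10 of the 12 were lower without overlap, and the median log2 fold changes were -2.17 and -2.40, with 2 and 4 genes called lower. Among HO libraries the list was highest in both libraries numbered 2, the only ones with fragments of Irx6. This was not particular to the list. Neural (2.72 and 4.78), skeletal muscle (2.08 and 1.81) and macrophage markers (5.44 and 5.15) were also highest in atrium-like and ventricle-like library 2. The part of any of these cells in the Irx5 and Irx6 values was not tested. The other members were low on both sides. The log2 fold change was 0.69 for Irx2 (95% interval -1.78 to 3.16), -0.03 for Irx3 (-1.43 to 1.38) and 0.55 for Irx4 (-2.55 to 3.65), and Irx1 was too low to be tested, with 24 fragments in atrium-like parts and 21 in atria. Atrium-like parts had a share of Irx4 that was 21.4 percentage points above that of atria (exact permutation test, two-sided, p = 0.2, adjusted 0.4) and in ventricle-like parts it was 19.4 points below that of ventricles (p = 0.4, adjusted 0.533).

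These differences depended on what the libraries were scaled to. When each library was scaled to the 12 cardiomyocyte genes, the median of all genes moved up by 3.74 on the log2 scale for atrium-like parts against atria and by 2.39 for ventricle-like parts against ventricles, and all values on this scale are relative to cardiomyocyte RNA. On this scale 85.3% of all genes were called higher and 0.656% lower in ventricle-like parts, where 1 of 6 members, Irx6, was called lower and 0 higher, and the estimate of Irx3 was 0.72, below the shift of the median. In atrium-like parts 90.6% of all genes were called higher and 0.662% lower. There Irx2, Irx3 and Irx4 were called higher (4.24, 3.35 and 3.73, against the shift of 3.74) and Irx6 lower, whereas Irx5 was at -0.99. Per cardiomyocyte RNA, Irx3 stood at -4.63, -4.72 and -4.75 on the log2 scale in atrium-like parts and at -8.67, -7.82 and -7.85 in atria. Irx4 stood at -7.36, -4.72 and -3.76 in ventricle-like parts and at -3.28, -3.03 and -3.16 in ventricles, so it was below the embryonic level on this scale too in all 3 libraries. Which share of the Irx transcripts of HOs came from cells other than cardiomyocytes was not tested.

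**Figure D4:**
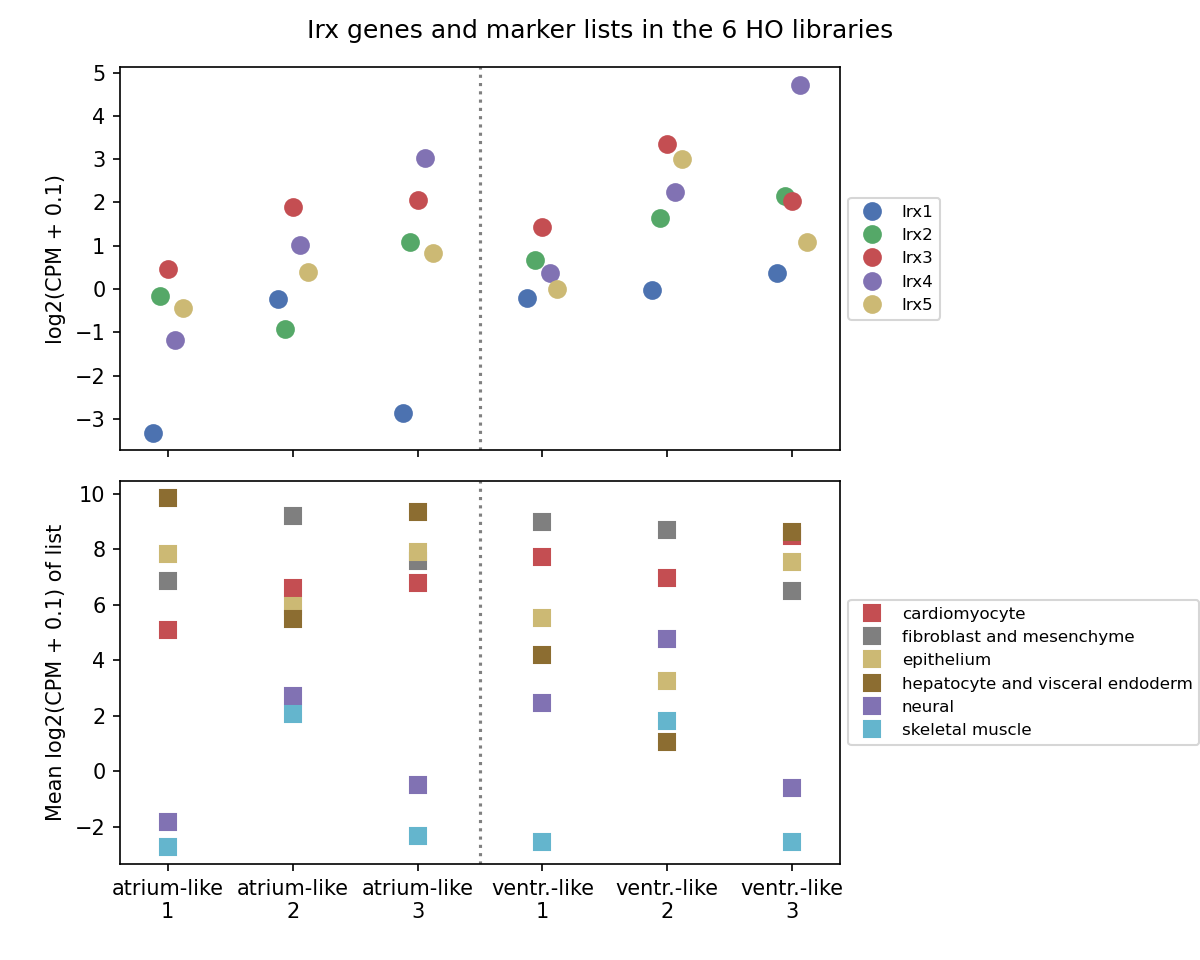
The upper panel gives log2(CPM + 0.1) of Irx1 to Irx5 in the 6 HO libraries, and the lower panel the mean log2(CPM + 0.1) of 6 marker lists in the same libraries. Irx4 is highest in the libraries numbered 3, and Irx3 and Irx5 are highest in ventricle-like library 2, where the neural list is at its highest. The endothelial and endocardial list and the macrophage list, also highest of their part in that library, are not drawn.

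In the order of group means, ventricles of E11.5H came first for all 6 members. For Irx1 to Irx4 ventricle-like parts followed, separated from ventricles without overlap, and the next steps in the order overlapped. For Irx5 atria came second, below ventricles and above ventricle-like parts without overlap at either step, and the HO parts overlapped. For Irx6 ventricles and atria overlapped, and both lay above the HO parts.

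The other genes of the same regions were taken as every gene of the table within 1 Mb (1000000 bases) of the outermost Irx gene of each cluster, with 24 genes around IrxA and 20 around IrxB. Of 16 tested around IrxA, 3 were called lower in atria of E11.5H and 0 higher, and of 8 tested around IrxB, 1 was called lower and 0 higher. Over all genes 1.97% were called lower and 2.92% higher. Gm20554, which starts head to head with Irx2, had 69, 62 and 67 fragments in the ventricular libraries and 0 in each atrial library. It was at least 23.4-fold higher in ventricles, computed against 3 fragments per atrial library. Crnde, a noncoding gene that starts 1675 bases from Irx5 on the other strand, had an atrial level of 1.12 ± 0.590 FPKM against 3.78 ± 0.495 FPKM in ventricles (log2 fold change -1.83 ± 0.41, edgeR adjusted p = 0.0142). It thus passed the fold limit that its neighbour Irx5 did not, and this difference between the genes was not tested. The other calls were Eprn at -1.35 (edgeR adjusted p = 0.0331) and Nkd2, an inhibitor of Wnt signaling, at -2.17 (0.0259). Fto, whose introns are known to hold distant enhancers of Irx3 and Irx5, stood at 32.4 ± 1.83 FPKM in atria, at 30.4 ± 2.43 FPKM in ventricles, and was not called. Between the HO parts 0 of the neighbours of either cluster were called, as were 0 of all 15703 genes tested.

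**Figure D5:**
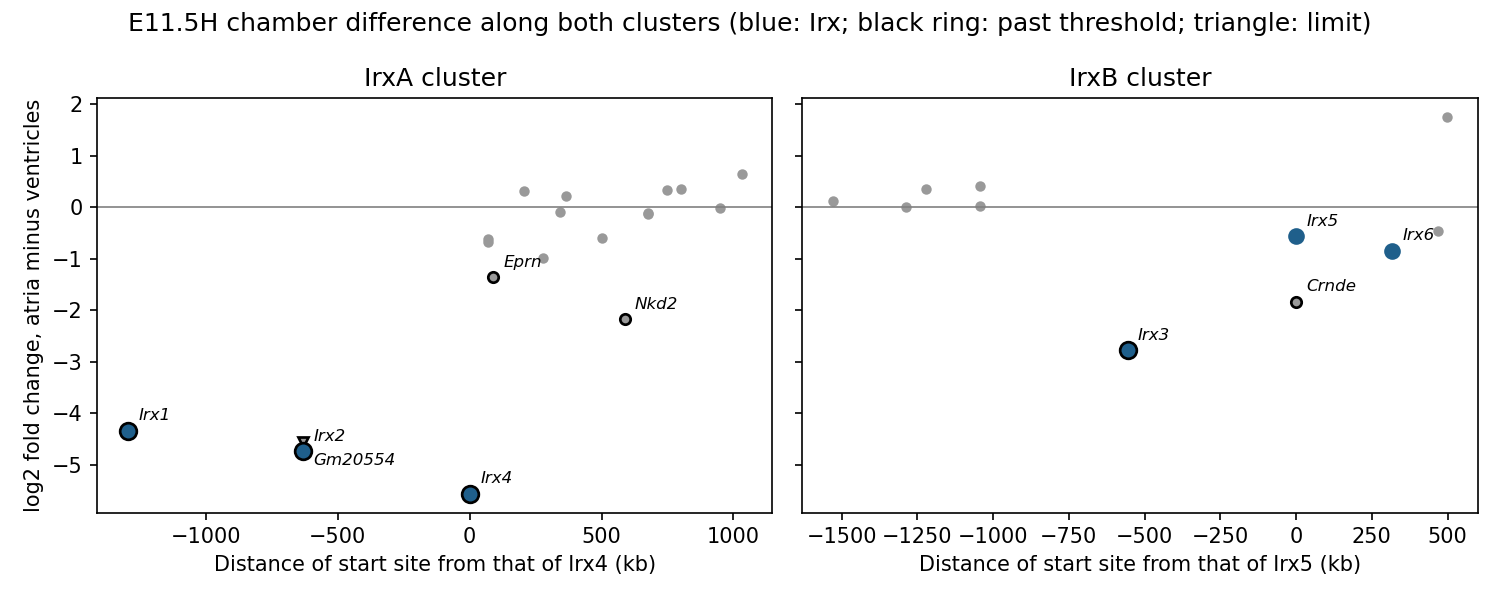
Log2 fold change in atria against ventricles of E11.5H for Irx genes (blue) and their neighbours (grey) by the distance (kb) of their start from that of Irx4 (left) or Irx5 (right); a black ring marks genes past the threshold and the triangle the limit for Gm20554. The 3 IrxA genes and Gm20554 lie lowest.

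The other TALE homeobox genes, 12 in number, did not share the chamber pattern, with 0 called between atria and ventricles of E11.5H (0 also between HO parts) and a median log2 fold change of 0.12. Over all genes 1.97% were called lower and 2.92% higher in these atria, and 0% were called between HO parts. Meis1, a cofactor of Hox proteins, had an atrial level of 22.0 ± 1.65 FPKM and a ventricular level of 19.2 ± 1.26 FPKM. In atrium-like parts against atria, Pbx2 (-1.20, edgeR adjusted p = 0.0258) and Tgif2 (-1.30, 0.0311) were lower. In ventricle-like parts against ventricles, Tgif2 was lower (-1.10, 0.00550), and Tgif1 (1.02, 0.00885) and Pbx4 (1.67, 0.0478) were higher.

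Among 10 cardiac factors that act with or upstream of Irx genes, 1 was called higher and 1 lower in atria of E11.5H. Over all genes 2.92% were called higher and 1.97% lower there. Tbx5, a T-box factor, was higher (log2 fold change 1.66, edgeR adjusted p = 2.85e-06). Hey2, a Notch effector of the compact ventricular wall, was lower (-1.94, 6.12e-06), at 7.05 ± 0.691 FPKM against 25.9 ± 3.43 FPKM in ventricles. Nkx2-5, which is known to be needed for Irx4 expression, had 82.9 ± 5.002 and 89.2 ± 5.70 FPKM there and was not called. In HOs Nkx2-5 stood at 5.45 ± 4.10 FPKM on the atrium-like side and at 18.6 ± 15.3 FPKM on the ventricle-like side, and it was lower than in the embryonic chamber in both (log2 fold changes -3.77 and -2.35, edgeR adjusted p = 0.00591 and 0.0273). In ventricle-like parts Hey2 (-4.79) and Mef2c (-1.43) were also called lower than in ventricles, and in atrium-like parts Tbx5 (-3.18) and Mef2c (-1.96) were lower than in atria. The exception was Vdr, the vitamin D receptor, which with its partner Rxra is known to form a complex with Irx4, and which was higher in both HO parts (1.85 and 2.66, edgeR adjusted p = 0.0107 and 0.00725). Between the HO parts 0 of the 10 were called, as were 0 of all 15703 genes tested.

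Of 9 genes known to respond to Irx3, Irx4 or Irx5 in the heart, 3 were called lower and 1 higher in atria of E11.5H. Over all genes 1.97% were called lower and 2.92% higher there. Hand1, a basic helix-loop-helix factor of the left ventricle, rose from an atrial level of 0.521 ± 0.316 FPKM to a ventricular level of 39.4 ± 2.95 FPKM (log2 fold change in atria -6.30, edgeR adjusted p = 1.56e-06). Gja1, which encodes connexin 43, was lower in atria (-1.71, 3.81e-07), as was Bmp10 (-1.50, 1.59e-04), a growth factor of trabecular myocardium. Kcnd2, a potassium channel gene known to be repressed by Irx5, was higher in atria (1.51, 0.00623). Against atria, atrium-like parts had 5 of the 9 called lower and 1 higher, where 8.81% of all genes were called lower and 16% higher. Against ventricles, ventricle-like parts had 6 called lower and 0 higher, where 7.35% of all genes were called lower and 11.6% higher. The gene called higher was Hand1 (log2 fold change 5.05, edgeR adjusted p = 0.0351), which had 15.5 ± 22.0 FPKM in atrium-like parts. Nppa, the gene of atrial natriuretic peptide, was among those called in both comparisons, with 1.34 ± 0.980 and 5.39 ± 2.92 FPKM in the HO parts against 2376 ± 443 FPKM in embryonic atria and 2825 ± 230.2 FPKM in embryonic ventricles. Between the HO parts 0 of the 8 tested were called, as were 0 of all 15703 genes tested. Gja1, for instance, stood at 57.4 ± 47.0 FPKM on the atrium-like side and at 90.4 ± 39.9 FPKM on the ventricle-like side.

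The genes most like each member over the 12 libraries were found as those with the smallest root mean square difference of centred log2(CPM + 1), among 14593 genes with a mean of at least 1 CPM. The likeness can rest largely on differences between E11.5H and HOs or between the embryonic chambers, which many other genes also show. Irx4 was followed at a distance of 0.98 on the log2 scale by Pln, which encodes phospholamban, the inhibitor of the calcium pump of the sarcoplasmic reticulum, against an SD of 2.40 of Irx4 itself. Pln had 16.2 ± 2.89 FPKM in atria, 220 ± 4.48 FPKM in ventricles, 7.59 ± 5.11 FPKM in the atrium-like parts of HOs and 28.2 ± 12.9 FPKM in their ventricle-like parts. Irx2 was closest to Mb, the myoglobin gene (0.53), and Mb was also among the 3 genes closest to Irx4 (1.17). Irx1 was closest to Grk5 (0.45), a kinase of G protein-coupled receptors, and Irx3 to Cspg4 (0.48), the proteoglycan NG2 of pericytes. Cspg4 had 1.76 ± 0.289 FPKM in atria, 13.7 ± 2.64 FPKM in ventricles, 2.73 ± 1.90 FPKM in the atrium-like parts of HOs and 5.08 ± 1.82 FPKM in their ventricle-like parts. Irx5 was closest to 1110032F04Rik (0.35) and to Gpr22 (0.36), an orphan receptor, which were at similar levels in both embryonic chambers and low in HOs. Irx6 was closest to Bmp10 (0.34), followed by Wnt9b (0.39) and the Notch ligand gene Dll4 (0.42). Bmp10, like Irx6, was listed at 0 in 4 of the 6 HO libraries.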

How the data were processed

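RNA from 12 samples in 4 groups of 3 was sequenced by the Takara company. Reads were aligned by the authors with STAR against GRCm38/mm10, and they deposited expected counts (fragments per gene, not normalized) and FPKM values (per kilobase of transcript and 1000000 fragments). The counting tool, annotation release and use of strand are not given in the sources used here. Of the deposited expected counts 23.34% were not whole (tolerance 0.001), and rounding to whole numbers preceded each count test.

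The main test was edgeR's quasi-likelihood test (version 4.0.16, R 4.3.3) with TMM factors. Genes were kept by filterByExpr at a minimum count of 10, and p was adjusted over all genes tested by the Benjamini-Hochberg method. Each pair of groups was fitted alone, and all 12 libraries entered the interaction term. A call needed an adjusted p under 0.05 and a log2 fold change beyond 1 in either direction. DESeq2 1.42.0, limma 3.58.1 on log2(FPKM + 0.1) and log2(FPKM + 1), other size factors, other low-count filters, scaling to cardiomyocyte genes, a replicate block and leaving out each library were alternatives. Figures were drawn with matplotlib 3.10.9 in Python 3.11.15.

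The 6 members and the gene lists were chosen with earlier results of these data known. Named genes are the members, genes of the lists past the threshold in a comparison or among the 4 most abundant of their list, and the 3 genes most like each member. Fto and Irx3os were named for their place beside the members. Library sizes allow a floor of 3 counts per library. The edgeR p-values set a difference against the spread between replicate libraries, 3 per group, with information on spread shared over genes.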

Additional observations from a re-analysis of the deposited data

How the results depend on the processing

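Of 480 fits of single members under another setting, 433 kept their direction and their side of the threshold, 24 lost and 10 gained the call, and 13 turned in direction. Between the embryonic chambers the number of members called was 4 to 5 when 1 library was left out and 0 with all 12 libraries in 1 fit (edgeR adjusted p = 0.467 for Irx1, 0.0686 for Irx2, 0.0886 for Irx3 and 0.218 for Irx4), and without a fold limit Irx5 joined the call (-0.56). Between the HO parts it was 0 to 0 without 1 library. For atrium-like parts against atria it was 2 to 2 without 1 library and 4 when scaled to cardiomyocyte genes, and for ventricle-like parts against ventricles 1 to 5 and, when so scaled, 1. In the interaction it was 0 to 0 without 1 library and 1 with limma on log2(FPKM + 1), where Irx2 was called (1.89, adjusted p = 0.0300).

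Scaling to cardiomyocyte genes turned the direction to 0.058 for Irx2 and 0.087 for Irx3 between the HO parts, 3.35 for Irx3 in atrium-like parts against atria and 0.72 for Irx3 in ventricle-like parts against ventricles, and it moved the median of all genes by 0.21 between the embryonic chambers, by 1.59 between the HO parts and by 1.37 in the interaction. Leaving out 1 library gave -3.22 to 0.21 for Irx4 between the HO parts, the latter without ventricle-like library 3. In atrium-like parts against atria it gave -0.35 to 0.31 for Irx3, positive at 0.05, 0.08 and 0.31 without atrial library 2, atrial library 3 or atrium-like library 1, and -0.16 to 1.88 for Irx2 and -1.07 to 2.22 for Irx4, both negative without atrium-like library 3. In the interaction it gave -0.88 to 3.23 for Irx1 and -1.73 to 4.43 for Irx6, both negative without atrium-like library 2, and -1.48 to 0.28 for Irx5, positive without ventricle-like library 2. The difference of the Irx4 share ranged, without 1 library, from -51.0 to -44.7 percentage points between the embryonic chambers, from -17.0 to 11.2 between the HO parts (2.11 without atrium-like library 1 and 11.2 without ventricle-like library 3), from 10.5 to 29.7 in atrium-like parts against atria and from -36.7 to -10.6 in ventricle-like parts against ventricles. The cause of these changes was not tested. Fits without 1 library also had fewer samples, and the part of this in the changes was not tested either.

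Irx4 in ventricle-like parts against ventricles was called with a stricter low-count filter (-3.40, edgeR adjusted p = 0.0470) and with limma (-4.20 and -3.50, adjusted p = 0.0174 and 0.0120 with pseudocounts of 0.1 and 1). The labels and methods do not say that samples of the same number belong together. The correlation of deviations from the group mean was 0.01 to 0.07 for same-numbered embryonic samples and -0.07, 0.62 and 0.41 for same-numbered HO parts, and not every sample correlated best with its own number. With the replicate block 4 members were called in ventricle-like parts against ventricles, with Irx4 called (-4.40, edgeR adjusted p = 0.0474) and Irx1 (0.0528) and Irx3 (0.0517) not. Here the block joined organoids and embryos, which are of different origin, by number alone. Their same-numbered correlations were -0.004, 0.001 and 0.037. The block is thus arbitrary in this comparison, and no conclusion is drawn from the calls it gained or lost. The 3 libraries per group and their spread in HOs limit what these comparisons can show.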
